A study of Rattus norvegicus with 8 samples.

Results

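Ultraconserved elements are stretches of DNA with the same sequence in the human, mouse and rat genomes. Some lie in genes for RNA-processing proteins, and many others lie near genes for developmental transcription factors, where a number of them act as enhancers in the embryo. Many are transcribed, from either strand, and the levels of these transcripts differ between tissues and between tumors and normal tissue. The Arraystar rat lncRNA array, a 1-colour Agilent oligonucleotide array, carries probes for them, named by the number of the element (uc.136, for example) and by + or - for the strand. The members described here were all probes with such a name that were not controls. They numbered 962 of 24684 non-control probes and covered 481 elements, each with a + and a - probe printed in 1 spot. The numbers ran to 483, with 2 numbers absent.

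RNA was measured on 8 arrays, all from male F344 rats at week 95 of a lung cancer model induced by NNK, a carcinogenic nitrosamine of tobacco smoke. There were 3 lung tumors of NNK-treated rats and 3 matched normal lung tissues, also of NNK-treated rats, so that no lung came from an untreated animal. By the study's methods the tumors were moderately differentiated adenocarcinomas. The other 2 arrays held clotted blood, 1 of a control rat and 1 of an NNK-treated rat. For the NNK blood array 1 of the labels, the description, spoke of a lung tumor. The remaining labels spoke of blood, and the array was taken as blood.

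The labelled tissues carried their markers. The 6 alveolar type 2 genes (surfactant genes among them) had mean normalized log2 signals of 14.4 to 18.6 in normal lung, and the probe of the globin gene Hbb had 19.3 on both blood arrays. Hbb was bright in lung as well (means of 17.6 in normal lung and 17.0 in tumor), and 4 of the 6 type 2 genes were above background on both blood arrays. The surfactant gene Sftpc, with a mean of 15.2 in normal lung, was above background on neither blood array. All 3 normal lung arrays and lung tumor 1 shared a slide, while lung tumors 2 and 3 were on slide 2 and the blood arrays on slide 3. Normal lung arrays differed from each other by less than the spread between spots of 1 probe (0.464 to 0.788 of the expected mean squared difference), as did lung tumors 2 and 3 (0.464), against 3.01 and 3.34 between lung tumor 1 and the other two. By the study's text the lung tumors were separate tumor samples, independent of each other, each paired with normal tissue, while the labels do not say whether the tissues came from separate rats. By these values the similar arrays may still be repeats of 1 sample, and p-values measure only the spread between these arrays. Among the lung cell lists, 3 of 3 tested alveolar type 1 genes and 0 of 5 tested type 2 genes were lower in tumor, beside 15.5% of all probes tested, and few genes were tested in each list. All 4 tested liver genes (mean log2 signals of 9.66 to 13.9 in normal lung, median difference -3.81) and 2 of 3 red cell genes (median difference -2.61) were lower too. Other marker genes were higher, beside 13.5% of all probes. Among them were the only tested proliferation gene, Cdk1 (2.52), 1 of 2 airway genes (Cyp2f4, 1.08), 1 of 2 neuron genes (Nefl, 1.18) and 1 of 2 heart muscle genes (Actc1, 1.72). The other heart muscle gene, Myh6, was lower (-1.95), as was the only tested platelet gene, Ppbp (-2.67). By the methods' t-test no neuron gene was called. With outlier-marked spots kept, more marker genes could be tested. The heart muscle gene Tnnt2 (4.94) and the type 2 gene Sftpc (1.14) were then higher, beside 13.5% of all probes. The endothelial gene Pecam1 (-1.88), 4 of 5 type 1 genes and 3 of 4 red cell genes were lower, beside 14.4%. The part of these shifts in the results on ultraconserved elements was not tested.

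Most of the ultraconserved element probes were dark in rat lung. Feature Extraction marks a spot as well above background from its local background, and by this mark 178, 203 and 218 members (18.5%, 21.1% and 22.7%) were above background on normal lung arrays 1 to 3. On the tumor arrays the counts were 207, 300 and 284 (21.5%, 31.2% and 29.5%), and each blood array had 291 (30.2%). Lung tumor 1 was thus within the range of the normal arrays of its slide, and the higher counts were those of lung tumors 2 and 3 on the other slide. Tissue and slide cannot be told apart for those tumors. Of the 153 negative control spots, between 0.654% and 7.84% were above background, with the highest share on normal lung 2, so some of the members seen on a single array are at the level of these controls. The other 8399 lncRNA probes were above background in 42.8% to 56.4% of cases in lung and 42.4% to 43.1% in blood, and the mRNA probes in 72.3% to 76.5% and 60.3% to 61.6%. The members were therefore the class least often above background on every array, while their share was higher on the blood arrays than on 5 of the 6 lung arrays. The share of mRNA probes was lower on both blood arrays than on every lung array.

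**Figure D1:**
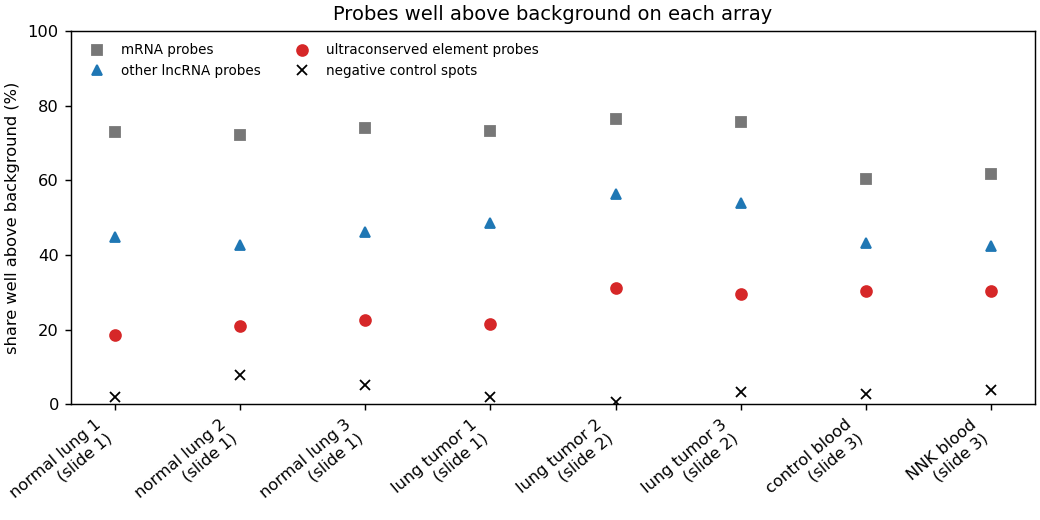
Share of probes well above background (y axis, %) on each of the 8 arrays (x axis, with the slide), for the ultraconserved element probes, other lncRNA probes, mRNA probes and negative control spots. The element probes lie between 18.5% and 31.2% on every array, below the other lncRNA probes and the mRNA probes.

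Detection was split between probes that were always seen and probes that were hardly seen. Of the 962 members, 508 were above background on no lung array, 172 on 1, 71 on 2, 41 on 3, 21 on 4, 25 on 5 and 124 on all 6. The filter for the comparison in lung, at least 3 of the 6 arrays, left 211 members (21.9%), and 751 did not pass. Of the 172 seen on a single lung array, 14, 45 and 40 were seen on normal lung 1 to 3 and 10, 36 and 27 on lung tumor 1 to 3. A group of 25 members was above background on all 3 tumor arrays and on no normal array, whereas 1 member, uc.360+, showed the reverse. A further 45 members were above background on lung tumors 2 and 3 and on no other lung array. The same counts are not given for all probes, so this split is not shown to be particular to the members. Other lncRNA probes too were more often above background on lung tumors 1 to 3 (48.5%, 56.4% and 53.9%) than on normal lung arrays (42.8% to 46.3%).

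By this mark many members were seen on the lung arrays and not on the blood arrays, or the reverse. The same counts are not given for all probes, so this is not shown to be particular to the members. Of the 211 members that passed in lung, 121 were above background on both blood arrays, 26 on 1 and 64 on neither. In the other direction, 47 members were above background on both blood arrays and on no lung array. There were 72 members above background on all 8 arrays and 394 on none. The 39 members seen on all 6 lung arrays and no blood array had median processed signals of 65.1 to 104 on the lung arrays against 2.39 and 6.25 on the blood arrays. The 47 members of blood had medians of 64.3 and 76.8 there, against 2.28 to 3.86 in lung. Among the former were uc.89+ and uc.403+, and among the latter uc.31+ and uc.73- (these 4 were chosen as examples after their values were seen).

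The 2 strands of an element were compared for whether they were seen together. With at least 3 of the 6 lung arrays required, 48 elements passed on both strands, 54 on the + strand only, 61 on the - strand only and 318 on neither. The - probe passed for 47.1% of elements whose + probe did and for 16.1% of those whose + probe did not. On the blood arrays, with both arrays required, these shares were 26.2% and 24.1%, from 28 elements with both strands, 79 with + only, 90 with - only and 284 with neither. With all 3 arrays of a group required, the shares were 47.4% and 10.1% in normal lung (27 elements with both strands) and 44.6% and 14.4% in tumor (41 elements). The number of elements with both strands was thus alike in normal lung and blood, while the shares lay far apart in lung and close together in blood. These are descriptions over elements, which share arrays, and the difference between the tissues was not tested.

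Only 3 elements, uc.46, uc.75 and uc.456, had both strands above background on all 8 arrays. For uc.46 the - probe read 15.46, 15.46 and 15.51 in normal lung, 15.71, 15.71 and 15.75 in tumor, and 8.02 and 8.86 in control and NNK blood, all as normalized log2 signal. The + probe of that element read 8.09, 8.01 and 8.00 in normal lung, 7.59, 7.79 and 7.55 in tumor, and 9.75 and 8.90 in blood. Both probes differed between tumor and normal lung by less than 2-fold, in opposite directions (0.25 and -0.39 on the log2 scale, limma adjusted p = 0.0071 and 0.0086). Lung and blood arrays were normalized separately, so their levels are given side by side only.

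The opposite pattern was counted as well. For 24 elements 1 strand was above background on all 8 arrays and the other on none, the + strand for 10 and the - strand for 14. Among all members, 26 + and 46 - probes were above background on all 8 arrays, and 394 members on none. A larger count of the opposite pattern could follow from these totals alone. Whether 24 and 3 elements differ from the counts for unlinked strands was not tested. Among the 24 were uc.38-, uc.84-, uc.86+, uc.310-, uc.335+, uc.415+ and uc.460-, the 7 that were called higher in tumor. None of the 24 was called lower. Among all 198 members tested 22.2% were higher and 4.04% lower, and among all probes tested 13.5% and 15.5%. The probe of uc.86+ read 7.52, 7.33 and 7.41 in normal lung and 8.92, 9.07 and 9.08 in tumor, a difference of 1.60 ± 0.079 (SE, adjusted p = 3.42e-05 by limma). On the blood arrays the same probe read 14.88 and 14.41. The probe of uc.415+ rose from 6.80, 7.15 and 6.62 to 8.28, 8.67 and 8.71 (1.69 ± 0.18, adjusted p = 0.000668 by limma), with 9.92 and 9.83 in blood. For uc.460- the values were 6.28, 6.13 and 6.17 in normal lung and 6.78, 8.46 and 8.42 in tumor, so lung tumor 1 lay much closer to normal lung than the tumors of the other slide (1.69 ± 0.48, adjusted p = 0.0261 by limma). For uc.335+ it was lung tumor 1 that stood apart, with 10.24 against 8.66 and 8.34, over 7.17, 6.92 and 7.18 in normal lung.

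The tumors were compared with normal lung to ask which transcripts differ between them. Of the 211 members that passed, 198 could be tested and 13 could not, because outlier marks left fewer than 2 values in a group. More members were higher than lower in tumor. With limma over all 12471 probes tested, a fold change of 2 and a Benjamini-Hochberg adjusted p of 0.05, 44 members (22.2% of those tested) were higher, against 13.5% of all probes tested, and 8 (4.04%) were lower, against 15.5%. Among other lncRNA probes the shares were 17.7% and 12.9%. The remaining 146 members were not called. At the unadjusted threshold of the study's methods the counts were 45 and 8, against 13.8% and 15.8% of all probes. The median log2 difference was 0.40 over the 198 members and 0.065 over all probes tested.

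Part of this surplus lay in members that the filter admitted through the tumor arrays alone. Of the 44 higher members, 13 were above background on no normal array, and their fold is only a lower bound. This bound, set against the lowest signal well above background on each normal array, reached 2-fold for 3 of the 13, stayed below it for 9 and gave no fold above 1 for uc.195-. Without probes that a whole group did not show above background, an alternative chosen after seeing the data, 31 of 172 members were higher (18.0% against 11.4% of all probes) and 7 lower (4.07% against 15.2%). Among the 111 tested members above background on all 6 arrays, 20 were higher and 6 lower with a median of 0.21, beside 11.1% and 15.6% of the 10573 probes of that kind and a median of 0.019. With the near-identical arrays counted once, which leaves 1 normal value against 2 tumor values with a spread from the tumors alone, 13 members were called higher (6.44%, against 4.69% of all probes) and 4 lower (1.98% against 5.87%), and 36 and 10 were past 2-fold and an unadjusted p of 0.05. Within slide 1, lung tumor 1 alone was set against the 3 normal arrays. This fit takes its spread from the normal arrays, which may be repeats, and assumes that the lone tumor varies like them, so its p-values carry little weight. It gave 32 higher members (16%, against 13% of all probes) and 8 lower (4% against 12.9%). The larger share of higher members did not hold in 2 other settings. With the normexp background correction, which compresses dim signals, 14 members were higher (7.07%, against 7.75% of all probes) and 2 lower (1.01% against 10.1%). With no filter on dim probes 5.48% of 949 members were higher, against 8.51% of all probes, and 1.37% lower, against 9.65%.

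**Figure D2:**
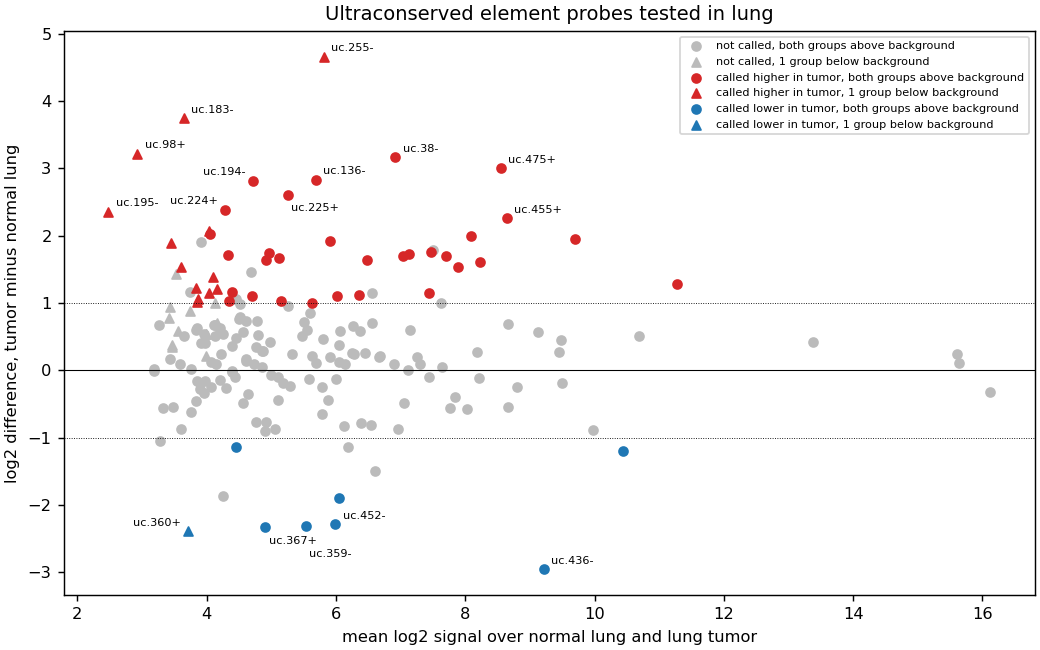
Log2 difference between lung tumor and normal lung (y axis) against the mean normalized log2 signal (x axis) for the 198 members tested in lung. Colours give the calls, triangles mark members that were above background on no array of a group, dotted lines mark 2-fold, and the members with the largest differences are named. The 44 members called higher range from 1.00 to 4.66 and the 8 called lower from -1.13 to -2.95.

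The 44 higher members comprised 25 + and 19 - probes, with a median fitted difference of 1.69, and 1.62 with the 13 members below background in normal lung at their bound (0 for uc.195-), and the 8 lower ones comprised 4 of each strand.

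The largest rise was that of uc.255-. This probe was at 3.78, 3.34 and 3.33 in normal lung, where it was never above background, and at 8.63, 7.88 and 7.92 in the tumors. The rise was at least 19.6-fold (fitted difference 4.66 ± 0.25, adjusted p = 4.57e-05 by limma), and the probe was above background on neither blood array. Its + strand was above background on lung tumor 3 and control blood only. For uc.183- the normal values of 1.48, 1.66 and 2.19 were also below background, and with 5.95, 5.55 and 5.08 in tumor the rise was at least 3.19-fold (adjusted p = 0.000177 by limma). The 3 values of uc.98+ in normal lung (1.33, 1.32 and 1.31) were at the bottom of the scale, so that 5.15, 4.20 and 4.27 in tumor gave a bound of only 1.61-fold beside a fitted difference of 3.22. For these 3 probes the fitted differences and p-values rest on normal values below background.

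The rises that were measured in both groups were led by uc.38-. This probe read 5.72, 5.14 and 5.15 in normal lung and 8.55, 8.45 and 8.51 in tumor, a difference of 3.17 ± 0.17 (adjusted p = 4.94e-05 by limma). It was above background on all 8 arrays and its + strand on none. The probe of uc.136- rose from 4.42, 4.12 and 4.29 to 7.25, 7.06 and 7.01 (2.83 ± 0.11, adjusted p = 1.46e-05 by limma). Each of these rises was seen in lung tumor 1 as much as in lung tumors 2 and 3. Both probes kept their call in every alternative setting that was run. Among the 10 largest rises by fitted difference and the 8 falls, 6 members kept it in all of theirs, 12 lost it with normexp and 7 with near-identical arrays counted once. Among the rises lost with normexp were uc.183- (0.67), uc.98+ (0.49), uc.194- (0.83), uc.225+ (0.97) and uc.195- (0.22).

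Other rises rested on less even normal values. The probe of uc.194- was above background in normal lung 1 (4.43) but not in normal lung 2 and 3 (2.69 and 2.80), and read 6.35, 6.11 and 5.91 in tumor (2.82 ± 0.50, adjusted p = 0.0047 by limma). For uc.224+ the normal values were 2.90, 4.32 and 2.06, of which 1 was above background, and the tumor values 5.90, 5.19 and 5.35 (2.38 ± 0.60, adjusted p = 0.0168 by limma). Its call was lost in 5 of 20 alternatives, namely normexp (0.56), lung tumor 1 alone, the slide as a block (2.81, limma adjusted p = 0.0544), near-identical arrays counted once (2.49, 0.0553) and the omission of normal lung 1 (2.29, 0.0527), the differences of the last 3 staying close to or above the one with all arrays. For uc.225+ the values were 3.42, 3.95 and 4.48 in normal lung and 6.67, 6.44 and 6.57 in tumor (2.61 ± 0.27, adjusted p = 0.000584 by limma). The tumor values of uc.195- (4.07, 3.74 and 3.16, over 1.43, 1.23 and 1.25) gave a fitted difference of 2.36 but no fold above the background bound.

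Falls were few, and those of uc.436- and uc.452- kept their call in every alternative. The probe of uc.436- read 10.66, 10.70 and 10.73 in normal lung and 7.71, 7.73 and 7.80 in the tumors, so the 2 groups were 2.95 apart and each kept within 0.1 (SE 0.054, adjusted p = 3.92e-06 by limma). For uc.452- the values were 7.15, 7.18 and 7.07 against 5.05, 4.83 and 4.66 (-2.29 ± 0.11, adjusted p = 3.19e-05 by limma). The probe of uc.367+ went from 6.02, 6.27 and 5.94 to 4.32, 3.57 and 3.34 (-2.33 ± 0.27, adjusted p = 0.0009 by limma), and its call was lost with normexp (-0.80) and with near-identical arrays counted once (-2.19, adjusted p = 0.0885). None of these 3 was above background on a blood array. The smallest fall was that of uc.117+, from 5.06, 5.38 and 4.59 to 4.18, 4.01 and 3.45 (-1.13 ± 0.28, adjusted p = 0.0156 by limma). Its call was lost in 8 of 20 alternatives. It went below 2-fold without normal lung 2 (-0.94), without lung tumor 3 (-0.92), with a 75th percentile shift (-0.90), with the authors' normalized values (-0.99), with normexp (-0.32), and with the slide as a block or lung tumor 1 alone (both -0.83). With near-identical arrays counted once the difference was -1.06 and the limma adjusted p 0.127.

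**Figure D3:**
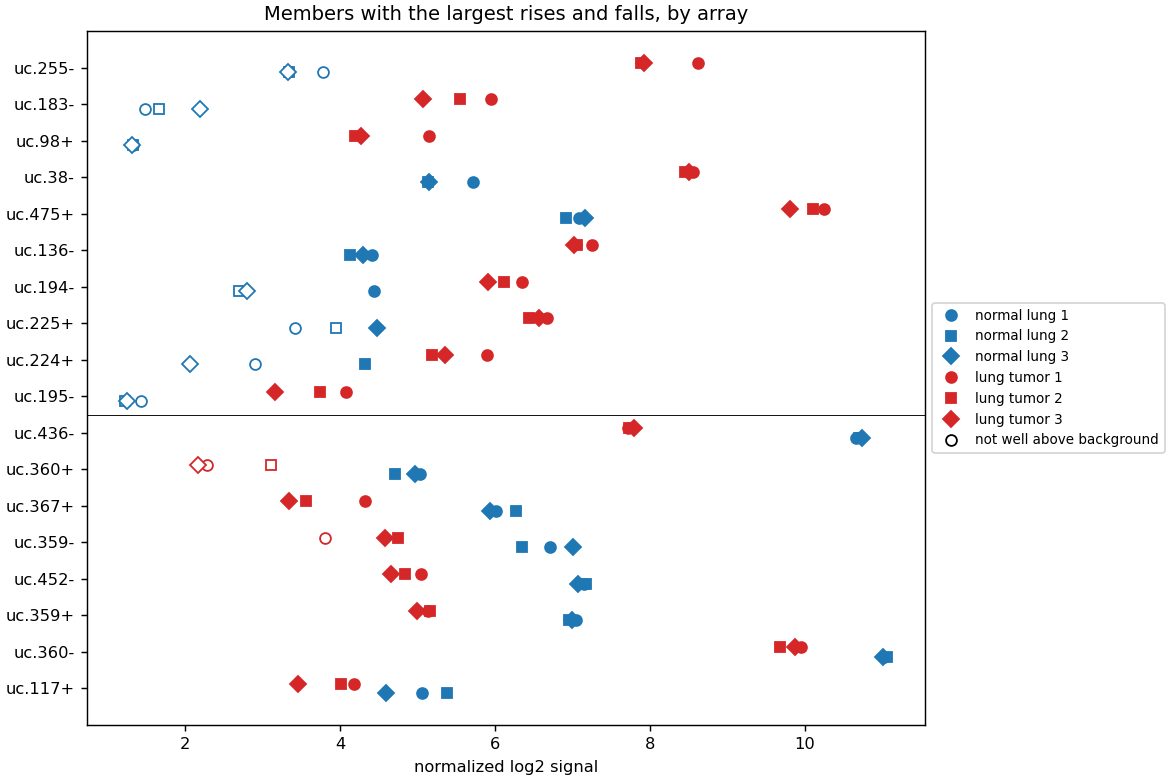
Normalized log2 signal (x axis) on each lung array for the 10 members with the largest rises (upper block) and the 8 members that fell (lower block). Blue symbols are normal lung, red symbols are lung tumor, symbol shapes give the replicate, and open symbols were not well above background. The members uc.255-, uc.183-, uc.98+ and uc.195- have only open symbols in normal lung. Their ranks, taken from the fitted differences, rest on values below background there.

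The 2 strands of an element moved the same way wherever both were called. In 37 elements both probes were tested, and the sign of the difference was shared in 23 of them (Pearson r = 0.39 and Spearman rho = 0.38 across elements, as a description, since all points share the same 6 arrays). Both strands were higher for uc.136 and 1 other element and both lower for uc.359 and uc.360. In each of the 2 elements that were higher, 1 probe was below background on all normal arrays, so its rise is only a bound under 2-fold. In the unnamed one this was the - probe (1.69-fold), whose call was lost with normexp (0.19) and with near-identical arrays counted once. In the latter setting its difference was 1.14, as with all arrays. In 11 elements 1 strand was called, in 22 neither, and in 0 were the strands called in opposite directions.

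Of the 4 elements called on both strands, 3 are given with their values. For uc.136, whose - probe is described above, the + probe was below background in normal lung (3.99, 2.70 and 3.51 against 4.78, 5.23 and 4.35 in tumor), with a bound of 1.87-fold and a fitted difference of 1.39 ± 0.39 (adjusted p = 0.0257 by limma). The call of uc.136+ was lost in 9 of 19 alternatives, among them the omission of normal lung 3, lung tumor 1 or lung tumor 2 (limma adjusted p = 0.0601, 0.0611 and 0.0794) and the replicate block (0.066). The difference stayed about as large without normal lung 3 (1.44) and with the replicate block (1.39), but was 0.30 with normexp.

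Among the elements that fell, uc.359 did so on both strands and so did its neighbour by number, uc.360. The + probe of uc.359 read 7.05, 6.95 and 7.0 in normal lung and 5.14, 5.15 and 5.0 in tumor (-1.90 ± 0.067, adjusted p = 1.27e-05 by limma). Its - probe read 6.72, 6.35 and 7.0 against 3.80, 4.74 and 4.57 (-2.32 ± 0.30, adjusted p = 0.0014 by limma). The + probe of uc.360 read 5.04, 4.71 and 4.96 against 2.28, 3.11 and 2.16, where it was below background, a fall of at least 3.14-fold (adjusted p = 0.000875 by limma). The - probe of uc.360, at 11.02, 11.06 and 11.01 in normal lung, was at 9.95, 9.68 and 9.87 in tumor (-1.19 ± 0.084, adjusted p = 0.000126 by limma). These 4 probes were thus 4 of the 8 members that fell. All 4 went below 2-fold with normexp (-0.81 and -0.84 for the + and - probes of uc.359, -0.37 and -0.99 for those of uc.360). With near-identical arrays counted once the differences stayed near those with all arrays (-2.46 for uc.359- and -1.16 for uc.360-), while the limma adjusted p was 0.0759 and 0.0707.

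**Figure D4:**
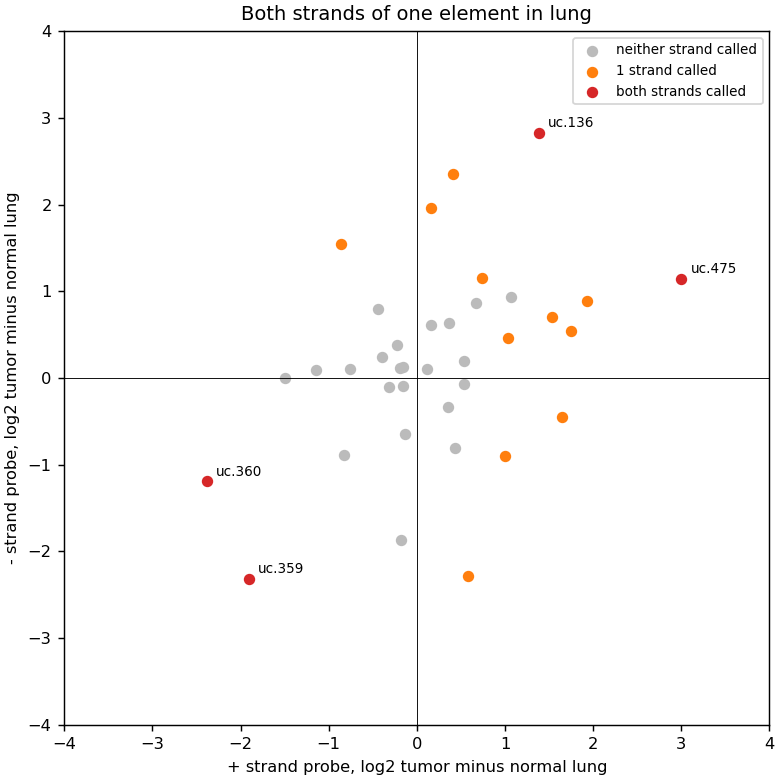
Log2 difference between lung tumor and normal lung of the - probe (y axis) against that of the + probe (x axis) for the 37 elements with both strands tested, coloured by how many strands were called. Of the 4 elements called on both strands, uc.136 and 1 other lie in the upper right and uc.359 and uc.360 in the lower left. No element has opposite calls.

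Elements are numbered along the human chromosomes, so that neighbours by number are often neighbours in the genome. Of the 44 higher members, 6 had a neighbour by number that was higher on the same strand (uc.194- and uc.195-, uc.224+ and uc.225+, uc.418- and uc.419-). This share, 13.6%, was little above the 10.4% of the 154 tested members not called higher that had such a neighbour. The pair of uc.418- and uc.419- rose from 7.20, 7.07 and 7.07 to 8.80 and 8.52 (lung tumor 3 carried an outlier mark) and from 6.82, 6.88 and 6.90 to 8.16, 7.96 and 7.93. For detection, 55.9% of the 211 members that passed and 34.6% of the 751 that did not had a neighbour on the same strand that passed.

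The 13 members that were not tested were bright ones, each above background on all 6 lung arrays. With their marked spots kept, 3 were higher and 1 lower at the same threshold, where 22.3% and 4.27% of all members and 13.5% and 14.4% of all probes were. They were chosen here after their values were seen. Of these uc.193- and uc.226+ are next in number to runs named above. With marked spots kept, uc.193- read 8.03, 8.02 and 8.21 in normal lung and 10.15, 9.49 and 9.80 in tumor (1.73), and uc.226+ read 6.11, 6.43 and 6.24 against 8.27, 8.32 and 7.90 (1.90). The - probe of uc.455 also rose, with 12.28, 12.26 and 12.21 against 14.22, 13.92 and 13.82 (1.73). Its + strand, which was tested, rose from 7.58, 7.45 and 7.51 to 9.76, 9.83 and 9.74 (2.26 ± 0.061, adjusted p = 6.23e-06 by limma), so uc.455 rose on both strands when marked spots were kept. The one that fell was uc.420+, from 11.97, 11.96 and 11.97 to 10.61, 10.55 and 10.61 (-1.38). Outlier marks were more frequent on tumor arrays (11, 12 and 17 members) than on normal arrays (1, 0 and 5).

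Elements that other studies have looked at in tumors were listed separately. The list held 13 elements with 26 probes, and 8 of these probes were above background on no array. In lung 9 probes passed and were tested, of which 4 were higher in tumor and 0 lower by limma. Of these 4, 2 were above background on no normal array and passed through the tumor arrays alone, with bounds of 1.46-fold and 1.69-fold. At an unadjusted p of 0.05 with 2-fold the counts were 4 and 0, and by the methods' t-test 3 and 0. These counts stand beside the 22.2% and 4.04% of all members tested, and the 13.5% and 15.5% of all probes tested. The 5 others were not called. Among them were uc.28+ (0.35), uc.28- (-0.33) and uc.63- (0.21), and the range was -0.33 to 0.55.

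Element uc.63 lies in Xpo1, the nuclear export receptor. The probe of uc.63- read 6.64, 6.29 and 6.74 against 6.43, 6.95 and 6.91, which overlap, and the Xpo1 mRNA, tested only with marked spots kept, differed by 0.55 ± 0.056 (adjusted p = 0.000438 by limma). The mRNAs of 3 other genes that hold listed elements were measured as well. Their differences were -0.96, -0.25 and 0.12 (limma adjusted p = 0.000276, 0.035 and 0.165). None was called, since all stayed under 2-fold, although the first 2 were lower at an adjusted p of 0.05. The + probes of the 3 elements were called higher, with fitted differences of 1.75 to 3.00. One of these + probes was below background on all normal arrays, with a bound of 1.46-fold, and its call was lost in 9 of 19 alternatives. Among these its fitted difference was 1.89 with the methods' t-test and the replicate block, as in the main fit. It was 1.80 with near-identical arrays counted once and 0.33 with normexp. Another lost its call with normexp (0.58) and with near-identical arrays counted once (1.81, limma adjusted p = 0.0544). The difference between a member and the mRNA of its gene was not tested.

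Some of the listed elements were seen in blood and not in lung. Both probes of uc.73 and the + probe of uc.63 were above background on both blood arrays and on no lung array. The probe of uc.73- read 6.59 in control blood and 5.51 in NNK blood, and that of uc.63+ read 6.55 and 5.04. Before normalization the processed signals were 64.3 and 72.0 for uc.73- and 62.1 and 53.4 for uc.63+.

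The mRNAs of the gene classes in or beside which ultraconserved elements often lie were described as well. Of 36 genes for splicing regulators, 32 had a named probe and 21 were tested, and 0 were called by limma or by the methods' t-test, although 13 had an unadjusted p under 0.05 by each. With marked spots kept, all 32 were tested and 1 was higher, Srsf2, a splicing factor of the SR family (1.05, adjusted p = 5.58e-05 by limma). The differences of the 21 lay between -0.96 and 0.91 with a median of 0.11. Of 40 developmental transcription factor genes, 25 had a named probe and 16 were tested, of which 1 was higher and 6 were lower, beside 13.5% and 15.5% of all probes tested (median -0.76, against 0.065). The one that was higher was Dlx1, a homeobox gene of forebrain and jaw development, with a difference of 7.25. The falls were led by Meis1 (-2.14), a partner of Hox proteins, by Tshz3 (-2.08), a zinc finger factor, and by Nr2f1 (-1.99), an orphan nuclear receptor. Developmental transcription factor mRNAs were thus mostly lower among those called, where members were mostly higher, and the difference was not tested.

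In blood, where there was 1 array per group and no test, members were more often lower than higher in the NNK-treated rat. Of 357 members above background on at least 1 blood array, 225 were above it on both, 66 in control blood only and 66 in NNK blood only. Of 337 that could be compared, 60 were higher and 99 lower past 2-fold in the measured values, against 23.1% and 19.1% of all probes compared. When only the 218 members above background on both arrays were taken, 7 were higher and 54 lower, against 18.1% and 14.9% of all probes of that kind. The others, 53 higher and 45 lower, were above background on 1 array only, and their bound reached 2-fold for 26 and 19 of them. The median difference of the 218 was -0.47, and that of all probes above background on both arrays was -0.12. Before normalization the 2 arrays differed in processed signal over all non-control spots. The medians were 11.8 in control blood and 32.0 in NNK blood, and the 75th percentiles 95.4 and 206. The counts thus depend on the rescaling between these arrays, and members were not set against other probes of like brightness. Differences here have no replicate check, and fewer cells of a type and less RNA per cell cannot be told apart.

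Among members above background on both blood arrays, uc.443- had the largest rise, from 7.92 in control blood to 9.86 in NNK blood. In lung the same probe was level, at 7.59, 7.62 and 7.63 in normal tissue and 7.62, 7.69 and 7.69 in tumor. It was followed by uc.312- (6.69 to 8.54), uc.305+ (5.99 to 7.68), uc.165+ (4.99 to 6.40) and uc.298- (6.55 to 7.84). The largest fall was that of uc.31+, which read 9.33 in control blood and 4.40 in NNK blood and was above background on no lung array (1.24 to 1.30). The next falls were those of uc.393+ (7.99 to 5.18), uc.150+ (7.98 to 6.0), uc.161- (6.89 to 4.94) and uc.138- (8.62 to 6.76). The sizes depended on the processing. Over the alternatives the difference of uc.443- lay between 1.65 and 2.05 and that of uc.31+ between -7.44 and -2.85, while uc.165+ (0.79 to 2.50), uc.298- (0.84 to 2.16) and uc.161- (to -0.91) went below 2-fold in some. Like uc.31+, the probes of uc.150+, uc.161- and uc.165+ were seen in blood alone.

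The 2 strands did not run together in blood. Over 26 elements with both probes compared, 14 shared the sign of the difference (Pearson r = -0.045 and Spearman rho = -0.083 across elements, a description over points that share 2 arrays). For uc.46 the + probe was 0.85 lower and the - probe 0.85 higher in NNK blood. Of the 44 members higher in lung tumor, 26 were above background on both blood arrays and 15 on neither. Of the 8 lower members, 3 were above background on both and 5 on neither.

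**Figure D5:**
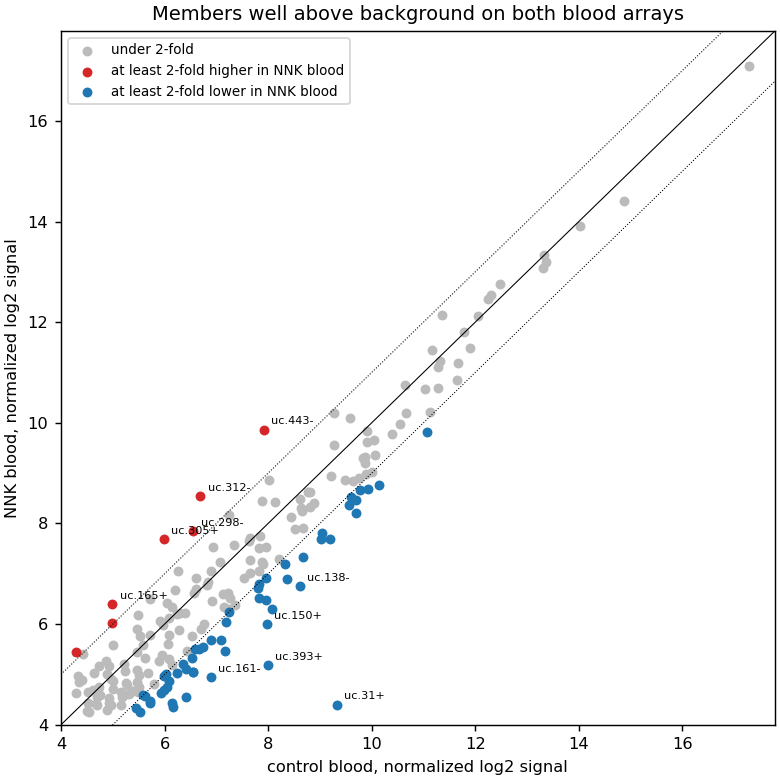
Normalized log2 signal in NNK blood (y axis) against control blood (x axis) for the 218 members well above background on both arrays that could be compared, 1 array per group. The solid line marks equal signal and the dotted lines 2-fold. More members lie below the lower dotted line (54) than above the upper one (7), and uc.31+ lies farthest from the solid line.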

How the data were processed

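The authors deposited, per array, the intensity of every spot as given by Agilent Feature Extraction 10.5.1.1 (the processed signal, background-subtracted and not normalized between arrays). They also deposited log2 values that were quantile-normalized over all 8 arrays, used here as an alternative. The number of arrays limits the precision.

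The log2 processed signals were quantile-normalized in R 4.3.3 with limma 3.58.1, separately for the 6 lung and the 2 blood arrays, without control spots and spots with an outlier mark. To count as above background on an array, a probe needed the mark well above background on over 50% of its spots. Probes above background on at least 3 of 6 lung arrays, with at least 2 values per group, were fitted with lmFit and eBayes, with the group as the only term, and p-values were adjusted over all 12471 probes by the Benjamini-Hochberg method. Blood was compared by 2-fold on probes above background on at least 1 array. A probe above background on no array of a group was given as a bound, against the higher of its own signal and the lowest signal well above background on each array. RefSeq transcripts gave names to 14274 of 15323 mRNA probes (93.2%).

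The probes named were the 10 largest rises and falls in lung (8 members fell) among called members with no overlap, the 5 largest rises and falls in blood among members above background on both arrays, every element called on both strands, the listed elements studied in tumors and the leading genes of the lists, with exceptions stated where they occur. Some members of the list of elements studied in tumors, among them 1 element with both strands higher and 1 of the 10 largest rises, are counted but not reported by name here. Members, lists and rules were chosen with earlier results of these data known. The mRNAs of 4 genes that hold listed elements were added after values were seen.

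The study's text calls the normal tissues matched. Deviations from the group means of arrays with the same number correlated at 0.14, -0.041 and 0.16 over 11359 probes, so the numbers were not taken to pair the samples, and the replicate block is an alternative. The steps were tested on simulated data. Alternatives were quantile normalization over all 8 arrays, a shift to the 75th percentile, normexp (offset 50, on the median signal), a floor of 5, other filters, marked spots kept, the authors' values, the methods' t-test, the replicate number or slide as a block, near-identical arrays counted once, each array left out, and, chosen after seeing the data, lung tumor 1 alone and the omission of probes that a whole group did not show above background.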

Additional observations from a re-analysis of the deposited data

How the results depend on the processing

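The count of members higher in tumor (44) was 14 with the normexp correction and 13 with near-identical arrays counted once, and that of lower members (8) was 2, 4 and, with no filter on dim probes, 13. The counts stayed within 1.5 times the main ones under each of the other alternatives run. The share of higher members, 22.2% against 13.5% of all probes, was not above that of all probes with normexp (7.07% against 7.75%) and with no filter (5.48% against 8.51%), and was above it with near-identical arrays counted once (6.44% against 4.69%). Leaving out each lung array in turn gave 32 to 48 higher and 7 to 10 lower members. With the replicate block 38 were higher and 8 lower, and among the members chosen by the naming rule only uc.136+ and 1 listed member lost their call. The signs of 2 uncalled members turned. For uc.63- the difference was -0.12 with the slide as a block, which is the same as with lung tumor 1 alone (-0.12). For a listed member it was -0.077 without normal lung 2 and -0.26 without lung tumor 1, in a range of -0.26 to 0.41 with each array left out. The members above background in lung (21.9%) were 47.2% with at least 1 array required and 12.9% with all 6. In blood the counts of higher and lower members (60 and 99) were 15 and 22 with normexp, 7 and 54 with both arrays required above background, and 102 and 156 with no filter, and a 75th percentile shift moved the median difference of all probes from -0.11 to -0.26. Members printed in 3 spots could not be examined alone, since each has 1. Apart from what an alternative removes by its own construction, the cause was not tested. Signals near background limit all members that were not seen above it in a whole group.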
